A study of Mus musculus with 36 samples.

Results

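The miRNA pool of the prostate was followed from 10 to 30 weeks of age in A537T-TRAMP mice. These mice are homozygous in the whole body for ELAC2 A537T, an alanine-to-threonine change made by CRISPR, and they carry 1 copy of the TRAMP transgene, in which the probasin promoter drives the SV40 T antigens in prostatic epithelium. ELAC2 is the ribonuclease that removes the 3′ trailer of precursor transfer RNAs. The 3 libraries of 10 weeks (libraries 4, 5 and 6) and the 3 of 30 weeks (libraries 13, 14 and 15) are 6 of the 36 libraries of the series, and all come from the ventral and lateral lobes of male, littermate-matched mice on the strain given as C56NL/6N. For reference, the same ages were compared in WT-TRAMP mice (unaltered Elac2, same transgene), in KO-TRAMP mice (prostate deletion of Elac2 by Pb-Cre, same transgene) and in A537T mice without the transgene, again with 3 libraries per age. The transgene and the A537T change are shared by both ages, and neither the transgene nor Elac2 messenger RNA was measured in these files.

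The 6 libraries held 8248079 to 17558076 miRNA reads, with the depths of the ages overlapping, and 1 read stood for 0.0570 to 0.121 reads per 1e+06 reads (RPM). Of the 1963 miRNAs listed, 1252 had at least 1 read in the 6 libraries and 496 had a mean of at least 1 RPM, the filter of the comparison. Fold changes are 30 over 10 weeks on the scale log2(RPM + 1), tested with limma, and the threshold was a Benjamini-Hochberg adjusted p of 0.05 over the 496. The libraries of a group are described as coming from separate mice, so p-values measure the spread between mice. Markers of the labelled tissue were present in all 6 libraries. The epithelial miR-200 family summed to 59164 to 91258 RPM and basal miR-205 and miR-203 to 2256 to 3119.6 RPM.

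A miRNA is a short RNA cut from a hairpin precursor, and it pairs with messenger RNAs mainly through its seed, bases 2 to 8, so miRNAs with 1 seed share many targets. Many miRNAs also mark a cell type. In a bulk prostate library miR-142, miR-150 and miR-223 come from leukocytes, miR-199 and miR-214 from fibroblasts and miR-143 and miR-145 from smooth muscle, while miR-155 and miR-146a are induced by NF-kB and the miR-34 family by p53. In these bulk samples, fewer cells of a type and less RNA per cell cannot be told apart.

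The mature sequences below are those on which the results turn, with the seed in capitals, written 5′ to 3′ as in RefSeq (GRCm38.p6). Of the 496 miRNAs tested, 404 matched an entry of that table, and miR-34c-5p has no entry. The first set holds the 5 miRNAs past the threshold, 2 of which are the arms of 1 hairpin.
miR-142a-3p: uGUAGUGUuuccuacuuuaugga
miR-142a-5p: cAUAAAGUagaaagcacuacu
miR-223-3p: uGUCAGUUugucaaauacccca
miR-155-5p: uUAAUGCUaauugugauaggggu
miR-511-3p: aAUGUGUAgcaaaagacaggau
No seed is shared among these 5. The second set shows members of families with shared seeds that had log2 fold changes above 0, though none passed, first the 5p and 3p arms of the miR-34 genes and then the miR-17 family.
miR-34a-5p: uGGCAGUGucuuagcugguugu
miR-34b-5p: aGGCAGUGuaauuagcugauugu
miR-34b-3p: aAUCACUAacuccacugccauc
miR-34c-3p: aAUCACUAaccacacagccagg
miR-17-5p: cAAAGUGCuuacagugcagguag
miR-20a-5p: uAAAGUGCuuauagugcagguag
miR-93-5p: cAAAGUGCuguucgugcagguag
miR-106b-5p: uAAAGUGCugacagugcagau
The third set holds miR-31-5p, which missed the threshold on the high side, and miRNAs that were lower at 30 weeks in all 3 libraries.
miR-31-5p: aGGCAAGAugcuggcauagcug
miR-129-5p: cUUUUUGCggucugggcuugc
miR-7b-5p: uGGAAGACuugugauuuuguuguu
miR-370-3p: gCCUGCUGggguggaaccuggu
miR-381-3p: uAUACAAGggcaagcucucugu

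From 10 to 30 weeks, 5 miRNAs rose past the threshold in A537T-TRAMP prostate and 0 fell. The 5 were both arms of miR-142a, miR-223-3p, miR-155-5p and miR-511-3p, 1.01% of the 496 tested, and each had a limma adjusted p of 0.0481. At an unadjusted p under 0.05 there were 85 miRNAs (17.1%), 67 higher (13.5%) and 18 lower (3.63%) at 30 weeks, and 316 (63.7%) had a log2 fold change above 0. All 3 libraries of 30 weeks lay above all 3 of 10 weeks for 102 miRNAs (20.6%) and below them for 20 (4.03%).

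The scaling of the libraries bears on this split. The median log2 fold change of the 496 was 0.15, and trimmed-mean (TMM) scaling moved the libraries of 30 weeks against those of 10 weeks by -0.15, to a median of 0.02, while DESeq2 size factors moved them by -0.19. With TMM scaling the unadjusted counts were 52 higher and 36 lower, and those without overlap 75 and 52. Values below are from scaling to total reads, and the log2 fold changes are to be read against the median of 0.15. The calls were close to the threshold. Of the 5, 4 remained with TMM scaling, 3 in edgeR and all 5 in DESeq2's Wald test, which called 25 miRNAs, and 0 remained with DESeq2 size factors in limma, where the smallest adjusted p was 0.0522 and 86 miRNAs had an unadjusted p under 0.05. Without library 4, a library of 10 weeks, 2 of the 5 passed. Without any 1 of libraries 5, 6, 13, 14 and 15 no miRNA did. The smallest limma adjusted p in those fits ran from 0.0521 to 0.105, with 57 to 79 miRNAs at an unadjusted p under 0.05. The split by direction rested in part on library 14. Without it the unadjusted counts were 43 higher and 36 lower, and 56.5% of log2 fold changes were above 0. Leaving out any other library gave 47 to 78 higher and 6 to 25 lower.

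**Figure D1:**
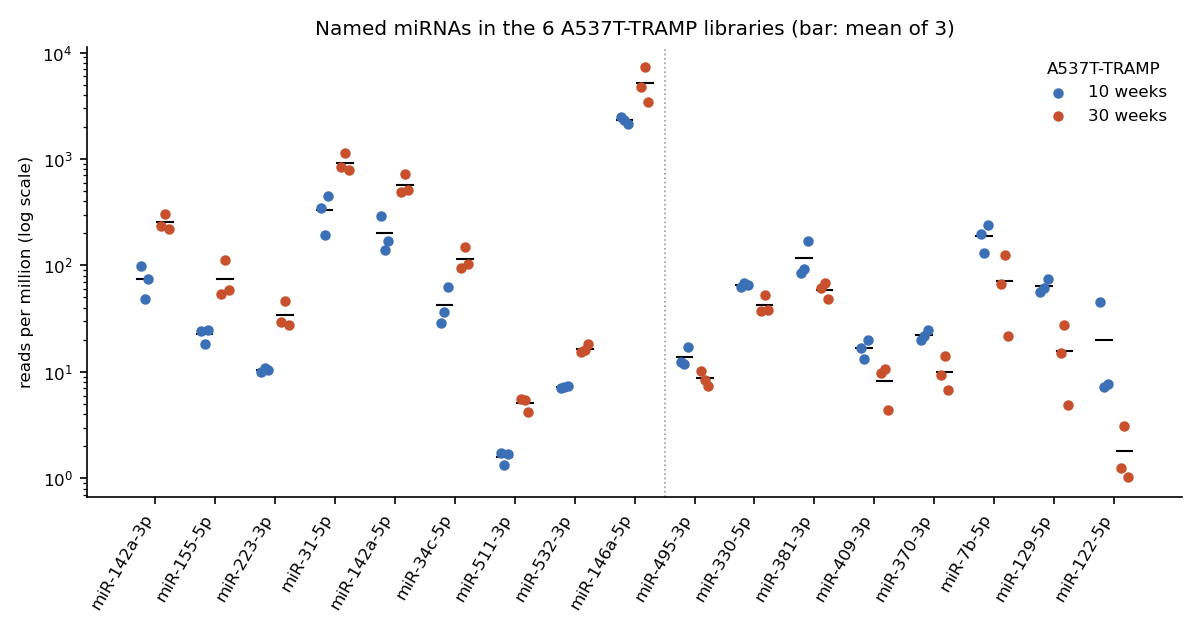
RPM (log axis) of the 17 named miRNAs in each A537T-TRAMP library, 10 weeks in blue and 30 weeks in orange, with a bar at the mean of 3 libraries. To the left of the dotted line all 30-week points lie above all 10-week points, and to its right all lie below. The miR-122-5p point at 45.2 is library 4.

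Leukocyte miRNAs had the highest median of the lists. All 5 of its 7 members that could be tested were higher at 30 weeks without overlap, against 20.6% of all tested, with a median log2 fold change of 1.55 (1.41 with TMM scaling) against 0.15 over all miRNAs tested. Together the 7 listed miRNAs summed to 467, 265 and 338.3 RPM in libraries 4, 5 and 6 and to 873, 1309 and 889 RPM in libraries 13, 14 and 15. The sum was 2.87 times as high at 30 weeks, with a two-sided exact permutation p of 0.1, the smallest that 3 against 3 libraries allow.

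miR-142 is made throughout the blood lineage. Its 3p arm measured 98.5, 48.7 and 75.4 RPM at 10 weeks and 235, 306 and 219 RPM at 30 weeks. The groups did not overlap, and the highest value was in library 14. The log2 fold change was 1.80 ± 0.30 (SE), and it passed in 11 of 17 alternatives. The value was exceeded among the 496 by miR-147-3p alone, named here after its values were seen, which averaged less than 10 RPM and had 1.80 ± 0.43 (SE) at an adjusted p of 0.0713 in limma. The 5p arm measured 294, 140.0 and 170.3 RPM at 10 weeks and 492, 717 and 509 RPM at 30 weeks, with a log2 fold change of 1.55 ± 0.31 (SE) that passed in 7 of 17. Within each age the 5p arm was the more abundant in every library. The hairpin lies at 87756864 to 87756927 on chromosome 11 (GRCm38, plus strand) within an intron of Mir142hg, a noncoding gene. Mir142b is annotated on the other strand there, and no source used here says whether counting was stranded.

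miR-223, of neutrophils and other myeloid cells, is encoded on chromosome X at 96242817 to 96242926 (plus strand), in an exon of the noncoding gene F630028O10Rik. miR-223-3p measured 9.98, 10.9 and 10.4 RPM at 10 weeks and 29.3, 46.0 and 27.5 RPM at 30 weeks. Its log2 fold change of 1.59 ± 0.28 (SE) passed in 10 of 17 alternatives. Its other arm, miR-223-5p, was also higher without overlap, at 6.29, 7.76 and 8.45 RPM against 8.999, 18.5 and 12.0 RPM, a log2 fold change of 0.69 ± 0.31 (SE) at an adjusted p of 0.286 in limma. miR-150-5p, of mature lymphocytes, measured 58.1, 57.1 and 73.7 RPM at 10 weeks and 107, 219 and 120.1 RPM at 30 weeks, a log2 fold change of 1.16 ± 0.31 (SE) at an adjusted p of 0.0909 in limma.

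miR-511-3p averaged less than 10 RPM and so lies outside the naming rule, and it is named because it passed. Its gene lies on chromosome 2 at 14261003 to 14261081 (plus strand), in an intron of Mrc1, which encodes the mannose receptor of macrophages. It measured 1.73, 1.33 and 1.69 RPM at 10 weeks and 5.58, 5.39 and 4.22 RPM at 30 weeks. The log2 fold change was 1.23 ± 0.24 (SE) and passed in 5 of 16 alternatives.

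Among the NF-kB miRNAs, miR-155-5p rose, and miR-146a-5p was higher without overlap but did not pass. miR-155-5p, which is induced in activated lymphocytes and macrophages, measured 24.2, 18.2 and 24.97 RPM at 10 weeks and 54.2, 113 and 58.8 RPM at 30 weeks, where library 14 again held the highest value. Its log2 fold change was 1.63 ± 0.32 (SE) and passed in 8 of 17 alternatives. Mir155 lies on chromosome 16 at 84714140 to 84714204 (plus strand), in an exon of Mir155hg. miR-146a-5p, which damps NF-kB signalling, was far more abundant, at 2469, 2311 and 2144 RPM against 4721, 7242 and 3399 RPM, a log2 fold change of 1.08 ± 0.28 (SE) at an adjusted p of 0.0886 in limma. Of 6 listed members 4 were tested, 3 were higher without overlap, against 20.6% of all tested, and the median log2 fold change was 0.80 (0.68 with TMM scaling). The list summed to 3132, 3061 and 2751 RPM at 10 weeks and 5458, 8628 and 4261 RPM at 30 weeks (two-sided exact permutation p = 0.1, the smallest possible).

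**Figure D2:**
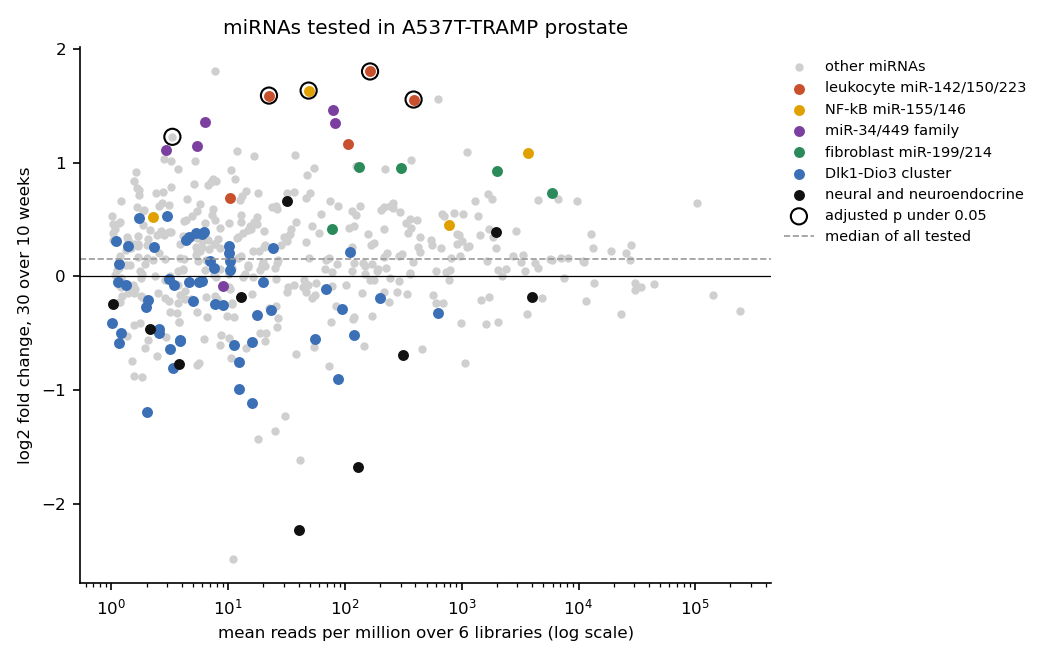
Log2 fold change, 30 over 10 weeks, against the mean RPM over the 6 libraries (log axis) for the 496 miRNAs tested, with 6 lists in colour and rings on the 5 miRNAs past an adjusted p of 0.05. The leukocyte and miR-34 lists have high medians, of 1.55 and 1.25, and the dashed line marks the median of 0.15.

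The next list joins the miR-34 family, direct targets of p53, with miR-449a-5p. Of its 6 tested members, 5 were higher at 30 weeks, all but miR-449a-5p, though 0 of the 6 passed the threshold in limma. The activity of p53 in this tissue, where the transgene drives the SV40 T antigens, was not measured. Whether p53 plays a part in these differences was not tested. The median log2 fold change was 1.25 (1.11 with TMM scaling), 5 members had an unadjusted p under 0.05 (13.5% of all tested were higher at that p) and 4 were higher without overlap (20.6% of all tested). miR-34c-5p measured 28.9, 36.3 and 63.1 RPM at 10 weeks and 95.6, 148 and 103 RPM at 30 weeks, a log2 fold change of 1.46 ± 0.33 (SE) at an adjusted p of 0.0624 in limma. Its other arm, miR-34c-3p, measured 1.02, 1.82 and 1.69 RPM against 3.76, 4.84 and 4.54 RPM, a log2 fold change of 1.11 ± 0.25 (SE). miR-34b-3p, from the same transcript, measured 3.77, 1.82 and 3.84 RPM against 6.78, 12.2 and 9.64 RPM. Mir34b and Mir34c lie side by side on chromosome 9, at 51103562 to 51103645 and 51103034 to 51103110 (minus strand), opposite an intron of Btg4. miR-34a-5p comes from a separate gene on chromosome 4 at 150068454 to 150068555 (plus strand), in no other annotated gene. It measured 29.3, 85.8 and 29.8 RPM at 10 weeks, with library 5 high, and 108, 161 and 74.9 RPM at 30 weeks, so the ages overlapped (log2 fold change 1.35 ± 0.44 (SE)). miR-449a-5p has the same seed as miR-34a-5p and marks multiciliated cells, and it measured 10.5, 8.37 and 8.91 RPM against 10.9, 9.13 and 6.37 RPM, a log2 fold change of -0.09 ± 0.28 (SE).

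miR-31-5p, a miRNA of epithelial cells, missed the threshold at an adjusted p of 0.0532 in limma and passed in 6 of 17 alternatives. It measured 343, 192 and 449.96 RPM at 10 weeks and 843, 1136 and 790.4 RPM at 30 weeks, a log2 fold change of 1.55 ± 0.32 (SE). The 3p arm overlapped between ages, since library 6 held 45.3 RPM at 10 weeks, and its log2 fold change was 1.07 ± 0.44 (SE). Mir31 lies on chromosome 4 at 88910557 to 88910662 (minus strand), in an exon of the noncoding gene AL805899.1.

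miR-532-3p measured 7.00, 7.15 and 7.30 RPM at 10 weeks and 15.3, 16.1 and 18.2 RPM at 30 weeks, a log2 fold change of 1.10 ± 0.25 (SE) at an adjusted p of 0.0624 in limma. Its other arm, miR-532-5p, is far more abundant and overlapped between ages, with a log2 fold change of 0.20 ± 0.26 (SE). Mir532 is the first of a run of hairpins on chromosome X, at 7237683 to 7248497 (minus strand), in introns of Clcn5. Of 7 tested miRNAs with a sequence entry in this run, which do not include miR-532-5p, 6 had a log2 fold change above 0 (63.7% of all tested). Of the 7, 5 were higher at an unadjusted p under 0.05 (13.5%) and 4 without overlap (20.6%), with a median of 0.73 (0.59 with TMM scaling). It was the highest median among the genomic runs of 3 or more miRNA genes spaced by at most 10 kb.

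Fibroblast miRNAs were higher at 30 weeks in all 5 tested members (63.7% of all tested), with a median log2 fold change of 0.93 (0.78 with TMM scaling). Of the 5, 4 were higher at an unadjusted p under 0.05, against 13.5% of all tested, and 0 passed the adjusted threshold in limma. The list summed to 4778, 6302 and 7635 RPM at 10 weeks and 9755, 11258 and 10706 RPM at 30 weeks, without overlap. In A537T without TRAMP the sum was already 10250 to 13265 RPM at 10 weeks, and 9272 to 11260 RPM at 30 weeks. It was 5375 to 8761 RPM and 7120 to 7467 RPM in WT-TRAMP, and 4345 to 7882 RPM and 7476 to 8965 RPM in KO-TRAMP. miR-199a-5p measured 992, 1488 and 1698 RPM and 2493, 2706 and 2577 RPM, a log2 fold change of 0.93 ± 0.24 (SE) at an adjusted p of 0.0909 in limma. miR-214-3p, made from the same transcript as the chromosome 1 copy of miR-199a, measured 69.1, 84.9 and 115 RPM and 155, 198 and 164 RPM, a log2 fold change of 0.96 ± 0.27 (SE). Smooth muscle miR-143 and miR-145 overlapped between ages. Their sum was 76283, 224824 and 176597 RPM at 10 weeks and 188115, 85408 and 134400 RPM at 30 weeks, a ratio of 0.854 with overlapping ages, low in libraries 4 and 14. Endothelial miR-126a-3p measured 5685, 7392 and 10174 RPM and 8068, 8866 and 8329 RPM, and red cell miRNAs summed to 139, 628 and 465 RPM and 571, 272 and 426 RPM, also overlapping between the ages.

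The miR-17-92 cluster and its paralogs, which are tied to cell proliferation, had a log2 fold change above 0 in 18 of 19 tested members (63.7% of all tested). Their median was 0.52 (0.38 with TMM scaling). The list summed to 7207, 5204 and 5606 RPM at 10 weeks and 6680, 10044.5 and 7070 RPM at 30 weeks. These sums overlapped between ages (two-sided exact permutation p = 0.3), and the highest was in library 14. Of the 19, 9 did not overlap (47.4%, against 20.6% of all tested), 7 were higher at an unadjusted p under 0.05 (13.5% of all tested) and 0 passed in limma. Values differed between seeds, a description without a test. The 6 members with the seed AAAGUGC (miR-17-5p, miR-20a-5p, miR-20b-5p, miR-93-5p, miR-106a-5p and miR-106b-5p) had a median of 0.70, and the 5 with AUUGCAC, which include miR-25-3p and miR-92a-3p and also miR-32-5p and miR-92b-3p, had 0.28. miR-20a-5p measured 349, 151 and 258 RPM at 10 weeks and 523, 516 and 425 RPM at 30 weeks, a log2 fold change of 1.02 ± 0.31 (SE) at an adjusted p of 0.122 in limma. The more abundant miR-25-3p averaged 3093 ± 528 at 10 weeks and 3586 ± 1024 at 30 weeks (SD, n = 3). On the log2 scale it differed by 0.19 ± 0.25 (SE). Members of the miR-15/16 family, which restrain the cell cycle, were above 0 in 10 of 10 (63.7% of all tested), with a median of 0.50 (0.35 with TMM scaling). Of the 10, 5 were higher without overlap (20.6% of all tested), and 0 passed in limma.

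**Figure D3:**
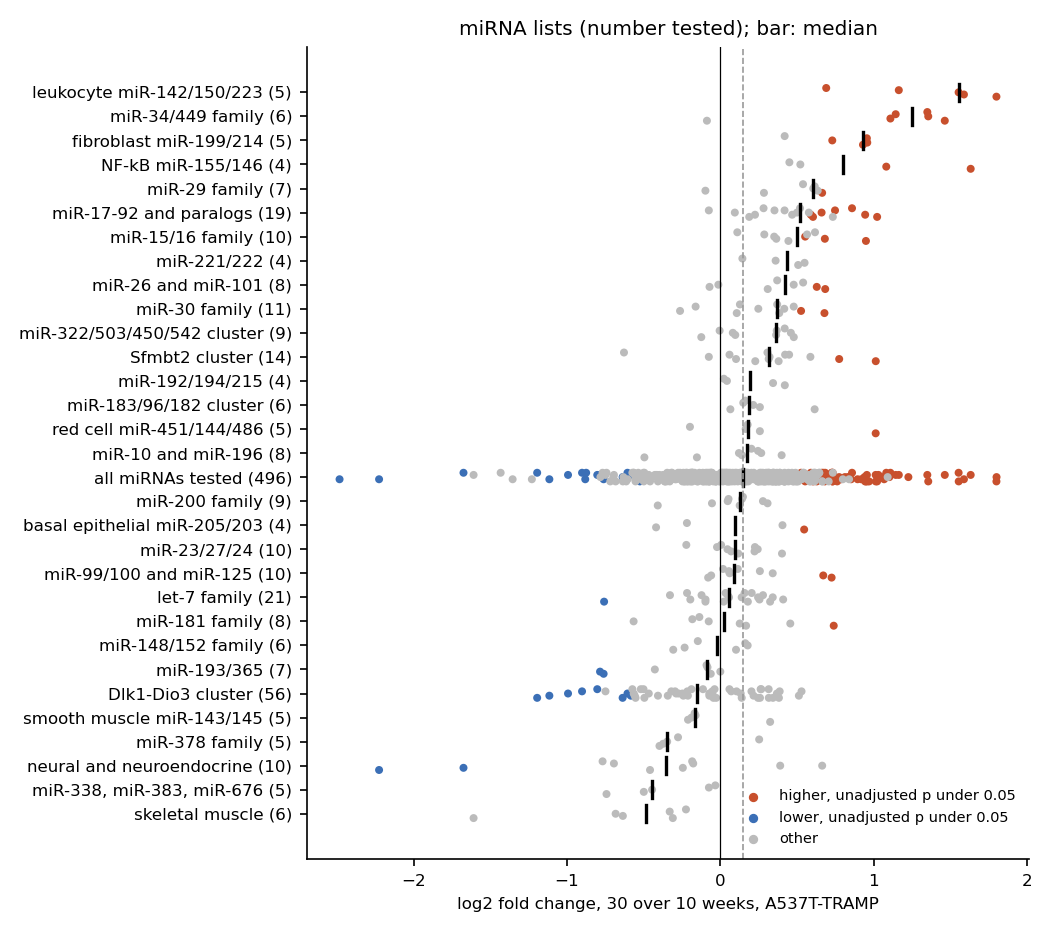
Log2 fold change, 30 over 10 weeks, of each tested member (points) of the 30 lists with at least 4 tested miRNAs and of all 496, ordered by the median (bar). Orange and blue points had an unadjusted p under 0.05. The leukocyte list has the highest median, 1.55, and the skeletal muscle list the lowest, -0.48, with the dashed line at 0.15.

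On the lower side, 0 miRNAs passed in the limma comparison reported here, with 18 at an unadjusted p under 0.05, and the 8 named by the rule are those with the smallest p among miRNAs of at least 10 RPM without overlap. In limma miR-129-5p passed with TMM scaling, with a pseudocount of 5 and without a filter, miR-370-3p passed with TMM scaling, and 2 miRNAs passed with all 36 libraries in 1 fit. DESeq2's Wald test called 9 as lower, of 52 at its unadjusted p under 0.05, and edgeR called 0 of 43. miR-129-5p and miR-7b-5p belong to a list of neural and neuroendocrine miRNAs. miR-129-5p measured 55.8, 61.7 and 75.3 RPM at 10 weeks and 14.98, 27.4 and 4.86 RPM at 30 weeks, a log2 fold change of -2.23 ± 0.49 (SE) at an adjusted p of 0.0624 in limma. The mature miR-129-5p is made from genes on chromosomes 2 and 6, and the reads do not tell them apart, while miR-129-2-3p, from the chromosome 2 gene alone, measured 2.52, 2.06 and 3.23 RPM and 1.77, 2.53 and 0.797 RPM. miR-7b-5p measured 196, 131 and 241 RPM at 10 weeks and 66.9, 126 and 21.5 RPM at 30 weeks, a log2 fold change of -1.67 ± 0.53 (SE) at an adjusted p of 0.14 in limma. In both, library 15 was the lowest and library 14 the highest at 30 weeks. The more abundant members of the list overlapped between ages. miR-7a-5p averaged 4193 ± 879 at 10 weeks and 3832 ± 1478 at 30 weeks (SD, n = 3), and miR-375-3p, a miRNA of endocrine and secretory cells, averaged 1817 ± 1300.2 at 10 weeks and 2085 ± 712 at 30 weeks (SD, n = 3). Over its 10 tested members the list had 2 above 0, against 63.7% of all tested, and a median of -0.35 (-0.45 with TMM scaling).

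The Dlk1-Dio3 cluster on chromosome 12 is a large imprinted miRNA cluster, expressed from the maternal chromosome. Of its 115 listed miRNAs 98 had reads and 56 were tested, and 12 of the 20 miRNAs lower at 30 weeks without overlap belong to it. These 12 are 21.4% of its 56, against 4.03% of all tested. With TMM scaling they numbered 19, of 52 among all tested. The median log2 fold change of the cluster was -0.15 (-0.29 with TMM scaling), with 37 below 0 and 19 above, where 63.7% of all tested were above. In limma 0 passed, with 8 at an unadjusted p under 0.05, all lower, against 3.63% of all tested. miR-370-3p, in an intron of the noncoding gene Rian (109618258 to 109618336), measured 20.1, 21.6 and 24.6 RPM at 10 weeks and 9.28, 14.2 and 6.69 RPM at 30 weeks, a log2 fold change of -1.11 ± 0.31 (SE) at an adjusted p of 0.0909 in limma. miR-381-3p (109726822 to 109726896, in no other annotated gene) measured 85.0, 93.5 and 170.2 RPM and 61.3, 68.5 and 48.2 RPM, and miR-409-3p, in an intron of Mirg, measured 16.7, 13.3 and 19.8 RPM and 9.80, 10.6 and 4.38 RPM. Among the more abundant members of the cluster the ages overlapped for miR-127-3p and miR-411-5p. miR-127-3p averaged 697 ± 154 at 10 weeks and 562 ± 143 at 30 weeks (SD, n = 3) and miR-411-5p 103 ± 22.9 at 10 weeks and 118 ± 7.96 at 30 weeks (SD, n = 3). Arms of 1 hairpin also differed, since miR-409-5p measured 11.1, 4.49 and 12.8 RPM and 10.5, 14.7 and 7.73 RPM, with overlap and a log2 fold change of 0.26 ± 0.39 (SE).

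**Figure D4:**
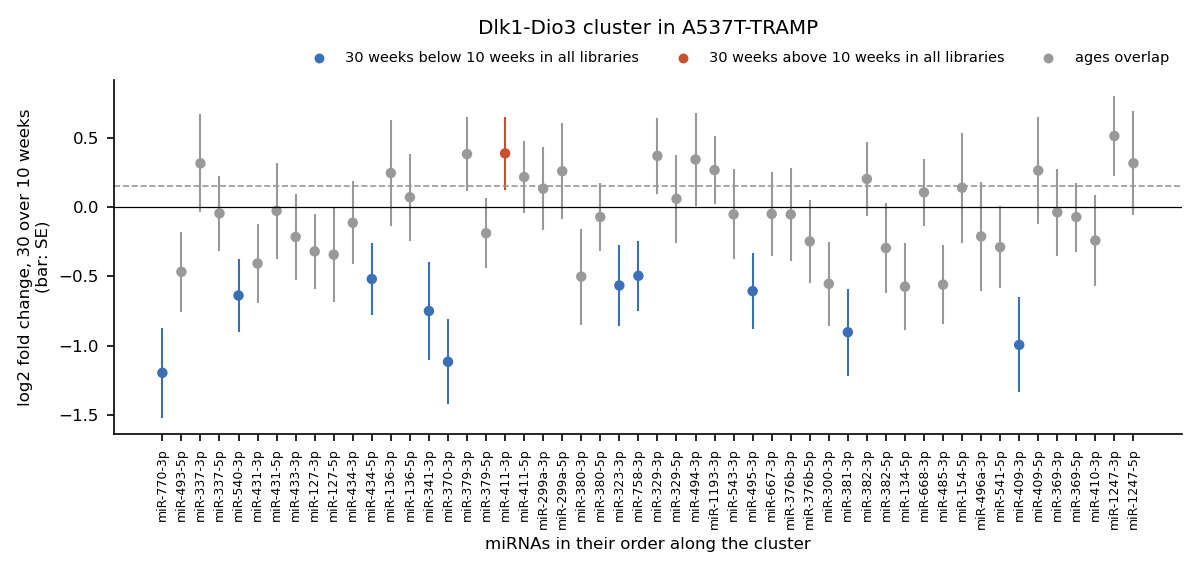
Log2 fold change, 30 over 10 weeks, with its SE (bar) for the 52 tested Dlk1-Dio3 miRNAs that have a position in the sequence table, in order along the cluster. Blue marks those below all 10-week libraries, orange those above, and grey those that overlap. Blue points run from miR-770-3p at -1.19 to miR-409-3p at -0.99, with none between miR-370-3p and miR-323-3p and none after miR-409-3p.

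miR-495-3p, also of the Dlk1-Dio3 cluster, measured 12.5, 11.8 and 17.1 RPM and 10.1, 8.47 and 7.41 RPM. miR-330-5p, whose hairpin lies in an exon of Eml2, measured 63.3, 68.0 and 65.0 RPM at 10 weeks and 37.0, 53.2 and 37.9 RPM at 30 weeks, a log2 fold change of -0.62 ± 0.26 (SE) at an adjusted p of 0.261 in limma. miR-122-5p, the dominant miRNA of liver, had the lowest log2 fold change of the 496, -2.48 ± 0.60 (SE) at an adjusted p of 0.0713 in limma. It measured 45.2, 7.15 and 7.68 RPM at 10 weeks and 1.25, 3.08 and 1.04 RPM at 30 weeks. Library 4 stood apart, and without it the log2 fold change was -1.66.

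Skeletal muscle miRNAs, which can come with tissue next to the prostate, were present at both ages. Their 17 listed members summed to 2180.4, 3816 and 9043 RPM at 10 weeks and 4631, 2443 and 3038 RPM at 30 weeks, highest in library 6. Of 6 tested members, 6 had a log2 fold change below 0, where 63.7% of all tested were above 0. Their median was -0.48 (-0.63 with TMM scaling), with overlapping ages. miR-206-3p, which is made in skeletal muscle, measured 16.7, 21.3 and 163 RPM and 8.999, 32.8 and 5.74 RPM. Without library 6 the summed ratio turned above 1, to 0.17 on the log2 scale. Whether muscle content plays a part in the differences above was not tested.

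The 5 most abundant miRNAs of the tissue overlapped between ages. miR-148a-3p took 30.2, 24.7 and 24.9% of the reads at 10 weeks and 19.97, 19.4 and 25.2% at 30 weeks, a log2 fold change of -0.31 ± 0.18 (SE). miR-143-3p took 7.29% to 21.4% and 8.10% to 17.9%. miR-21a-5p, which is high in many tumours, took 12.2, 4.86 and 8.27% at 10 weeks and 11.4, 14.6 and 11.3% at 30 weeks, and its log2 fold change of 0.65 ± 0.30 (SE) came at an adjusted p of 0.305 in limma. miR-26a-5p and let-7f-5p had log2 fold changes of -0.07 ± 0.18 (SE) and -0.10 ± 0.19 (SE), each smaller than its SE. The 10 tested miRNAs with the let-7 seed GAGGUAG had a median of -0.11, with miR-98-5p lowest at -0.76 ± 0.32 (SE). Epithelial lists lay near the median of all miRNAs. The miR-200 family had a median of 0.13 (-0.02 with TMM scaling). The basal pair divided, as miR-203-3p had 0.55 ± 0.23 (SE) and miR-205-5p -0.42 ± 0.28 (SE), neither past the threshold, and the median of the basal list was 0.09.

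Among smaller lists, the miR-29 family had a median log2 fold change of 0.61, led by miR-29a-3p at 6569, 6948 and 8961 RPM and 11822, 13599 and 10124 RPM without overlap. The pair miR-26 and miR-101 had 0.42, the miR-30 family 0.37, miR-221 and miR-222 0.43, the arms of miR-21 0.68, the arms of miR-210 0.39, endothelial miR-126 0.40, the miR-322 cluster of chromosome X 0.36, the miR-135 family 0.32 and the Sfmbt2 cluster 0.32. The summed level of miR-26 and miR-101 did not rise, at 0.984 times as high at 30 weeks with overlapping ages. Nearer the median of all miRNAs were the miR-183 cluster with 0.19, miR-192, miR-194 and miR-215 with 0.19, the red cell list with 0.18, miR-10 and miR-196 with 0.17, miR-99, miR-100 and miR-125 with 0.09, miR-23, miR-27 and miR-24 with 0.09, the let-7 family with 0.06, the miR-181 family with 0.03 and the miR-148 family with -0.02. Medians were -0.09 for miR-193 and miR-365, -0.17 for smooth muscle miR-143 and miR-145, -0.35 for the miR-378 family, -0.38 for the arms of miR-708 and -0.44 for miR-338, miR-383 and miR-676. In these lists 0 members passed in limma. Those between 0 and 0.19 lie within the scaling shift and give no direction. That of the miR-148 family moved to -0.17 with TMM scaling, and on total reads 3 of its members were above 0 and 3 below.

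Arms of 1 precursor gave a further view of the same libraries. Both arms were tested for 138 precursors, and their log2 fold changes differed in sign in 37. Both had an unadjusted p under 0.05 for 10 precursors, among them miR-142a, miR-223, miR-31, miR-34b, miR-34c, miR-132 and miR-212, and all 10 were higher in both arms at 30 weeks. Both arms were higher without overlap for 13 precursors and lower for 0, on the scaling that puts 63.7% of all tested miRNAs above 0. Of all tested miRNAs taken singly, 13.5% were higher and 3.63% lower at that p, and 20.6% and 4.03% without overlap. The log2 fold changes of the arms were correlated (Pearson r 0.57), so the arms are not independent counts.

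The study's text names 6 miRNAs from other comparisons of the series, between lines rather than ages. miR-122-5p is given above. miR-10a-5p, from the Hoxb cluster, measured 9745, 15780.4 and 10577 RPM and 17741, 9482 and 16122 RPM, with overlap. miR-338-3p measured 20.05, 17.34 and 29.81 RPM and 17.03, 17.27 and 11.79 RPM, lower without overlap by a narrow gap, a log2 fold change of -0.50 ± 0.30 (SE) at an adjusted p of 0.398 in limma. miR-383-5p measured 1.10, 1.21 and 4.23 RPM and 1.03, 1.21 and 0.159 RPM, near the filter. miR-669c-5p, of the Sfmbt2 cluster, whose near-identical members may share reads, measured 7.00, 28.7 and 18.8 RPM and 10.99, 11.7 and 7.41 RPM, and miR-676-5p measured 26.6, 50.0 and 37.4 RPM and 31.2, 39.2 and 34.8 RPM, both with overlap.

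Whether the age difference of A537T-TRAMP is its own was asked with the difference between its age effect and that of each other line, in limma over 12 libraries. These 3 comparisons share the A537T-TRAMP libraries. Against WT-TRAMP, 0 of 504 miRNAs passed, 89 had an unadjusted p under 0.05 (17.7%), 79 higher in A537T-TRAMP (15.7%) and 10 lower (1.98%), and edgeR called 1 and DESeq2's Wald test 7. The split turned with TMM scaling, to 22 higher and 44 lower. The smallest p belonged to miR-708-3p. In A537T-TRAMP it measured 7.55, 11.3 and 13.1 RPM at 10 weeks and 6.83, 7.04 and 5.66 RPM at 30 weeks, and in WT-TRAMP 5.47 to 8.48 RPM and 16.2 to 28.04 RPM, so the lines went opposite ways. The difference was -2.07 ± 0.37 (SE) at an adjusted p of 0.0508 in limma, and it passed in 9 of 23 alternatives. In A537T-TRAMP alone miR-708-3p had -0.61 ± 0.28 (SE) at an adjusted p of 0.305 in limma. The more abundant arm, miR-708-5p, had -0.16 ± 0.28 (SE) there. Of the 2 arms, 1 had an unadjusted p under 0.05 against WT-TRAMP.

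The leukocyte miRNAs had higher levels at 30 weeks in WT-TRAMP, in KO-TRAMP and in A537T without TRAMP as well. Their sum was 381 to 708 RPM at 10 weeks and 842 to 1091 RPM at 30 weeks in WT-TRAMP, and 407 to 483 RPM and 621 to 1611 RPM in KO-TRAMP. In A537T without TRAMP it was 265 to 325 RPM and 403 to 584 RPM, also higher at 30 weeks without overlap. Its sums at 30 weeks were lower than in any A537T-TRAMP library of that age. For miR-142a-3p the age effect was 1.80 in A537T-TRAMP, 1.19 in WT-TRAMP, 1.94 in KO-TRAMP and 0.83 in A537T, and the differences of A537T-TRAMP from them were 0.61 ± 0.44 (SE), -0.14 ± 0.44 (SE) and 0.98 ± 0.38 (SE), at adjusted p in limma of 0.452, 0.925 and 0.156. miR-223-3p differed more from WT-TRAMP, where it measured 11.5 to 21.1 RPM at 10 weeks and 18.9 to 21.7 RPM at 30 weeks, a difference of 1.32 ± 0.35 (SE) at an adjusted p of 0.165 in limma.

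**Figure D5:**
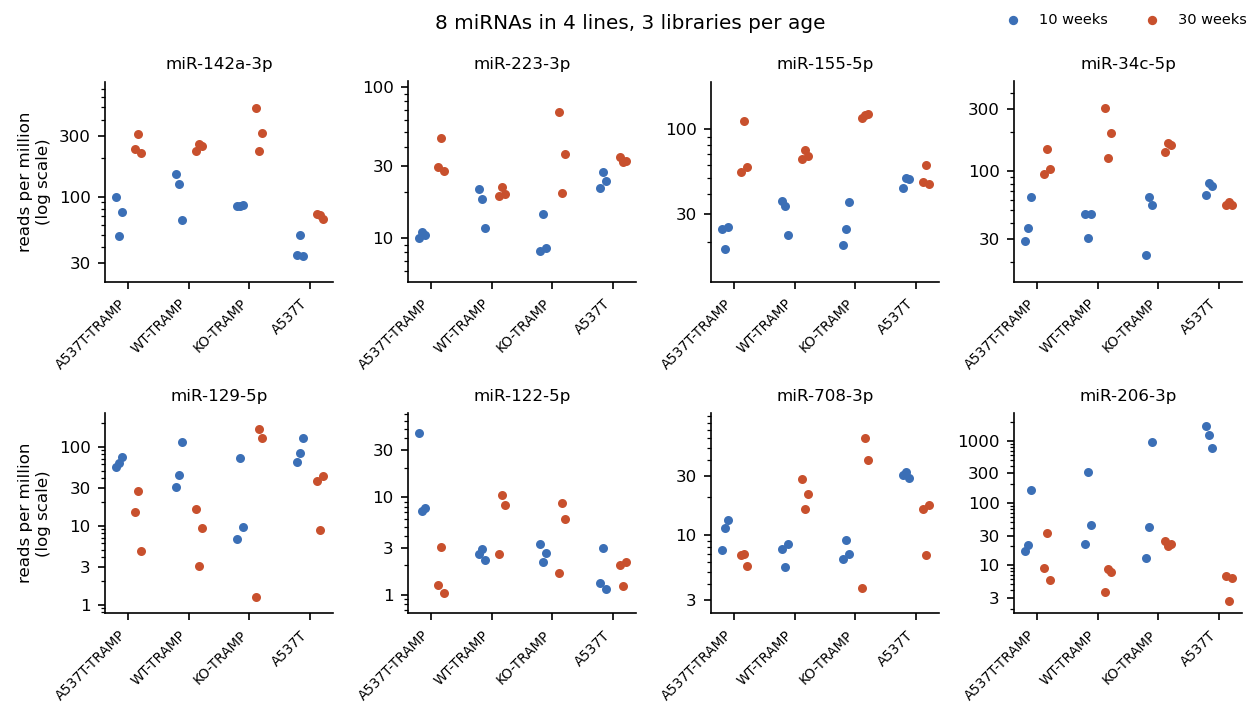
RPM (log axis) of 8 miRNAs in the 3 libraries of each age (10 weeks blue, 30 weeks orange) in A537T-TRAMP, WT-TRAMP, KO-TRAMP and A537T without TRAMP. miR-34c-5p is higher at 30 weeks in the 3 TRAMP lines and not in A537T, miR-708-3p is lower at 30 weeks in A537T-TRAMP and higher in WT-TRAMP, and miR-206-3p is at 776 to 1766 RPM in the A537T libraries of 10 weeks.

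Against WT-TRAMP, 55 miRNAs of the Dlk1-Dio3 cluster were tested. Their median age effect was -0.11 in A537T-TRAMP and -1.07 in WT-TRAMP, and the median difference was 0.92 against 0.25 over all 504 (0.64 against -0.08 with TMM scaling). Of the 55, 31 (56.4%) had an unadjusted p under 0.05 in this direction, against 15.7% of all tested, and 0 passed the adjusted threshold in limma. Leaving out library 11, of WT-TRAMP at 30 weeks, gave 21 miRNAs past the threshold in this comparison, 5 higher and 16 lower, and leaving out library 4 gave 3. Against KO-TRAMP, 0 of 512 passed and 47 had an unadjusted p under 0.05 (9.18%), 15 higher in A537T-TRAMP (2.93%) and 32 lower (6.25%), with 0 in edgeR and 19 in DESeq2's Wald test. There the 3 KO-TRAMP libraries of 30 weeks were far apart, with miR-129-5p at 1.24 to 167 RPM, and without library 16 of that group 60 miRNAs passed, 54 of them lower in A537T-TRAMP. In this comparison the Dlk1-Dio3 cluster had a median age effect of 0.24 in KO-TRAMP and -0.09 in A537T-TRAMP over 56 miRNAs, a median difference of -0.44 (-0.39 with TMM scaling) against -0.06 over all 512. Of the 56, 0 were higher and 4 lower at an unadjusted p under 0.05, against 2.93% and 6.25% of all 512. The smallest p belonged to miR-7688-5p, at 0.571 to 1.15 RPM and 1.95 to 3.46 RPM in KO-TRAMP, a difference of -1.51 ± 0.33 (SE) at an adjusted p of 0.411 in limma.

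Against A537T without TRAMP, 36 miRNAs passed (7.16%), 35 with a higher (6.96%) and 1 with a lower age effect in A537T-TRAMP (0.199%). At an unadjusted p under 0.05 there were 92 higher (18.3%) and 9 lower (1.79%), and with TMM scaling 49 higher and 40 lower. Markers of muscle move with this comparison. Skeletal muscle miRNAs summed to 37234 to 137283 RPM in A537T at 10 weeks and 3560.1 to 5458 RPM at 30 weeks, 5 of the 36 belong to that list, and 4 to the miR-378 family, which is high in muscle. Their part in the other differences was not tested. The list also rests on scaling and on single libraries, since 8 passed with TMM scaling (6 higher, 2 lower) and 0 in edgeR, where 94 had an unadjusted p under 0.05. Without library 35, an A537T library of 10 weeks with 655455 reads, 3 passed, without library 14 also 3, without library 25 there were 4, without library 27 5, without library 13 11, without library 36 19, without library 4 21, and without library 5 none, with 89 at an unadjusted p under 0.05. In the fit without library 6, 54 passed.

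Among the 36 are miRNAs named above. miR-34c-5p measured 65.0 to 80.9 RPM at 10 weeks and 55.1 to 57.4 RPM at 30 weeks in A537T, and the difference from A537T-TRAMP was 1.86 ± 0.39 (SE) at an adjusted p of 0.0255 in limma. In WT-TRAMP and KO-TRAMP its age effects were 2.25 and 1.84, and A537T-TRAMP did not differ from either past the threshold. miR-155-5p measured 43.4 to 50.3 RPM and 45.8 to 60.2 RPM in A537T, a difference of 1.55 ± 0.39 (SE) at an adjusted p of 0.0295 in limma, and miR-223-3p differed by 1.16 ± 0.33 (SE) at an adjusted p of 0.0477 in limma. None of the 3 passed with TMM scaling, where the differences were 1.41, 1.10 and 0.73, or in edgeR, and miR-34c-5p alone of them passed with DESeq2 size factors. Of the Dlk1-Dio3 cluster 12 of 58 passed, against 7.16% of all tested, and no member of the cluster passed with TMM scaling, with DESeq2 size factors or in edgeR. Its median age effect was -1.25 in A537T and -0.12 in A537T-TRAMP over these 58, a median difference of 1.10 (0.70 with TMM scaling) against 0.26 (-0.14) over all miRNAs tested there.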

How the data were processed

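Small RNA of ventral and lateral prostate lobes was sequenced by the authors on an Illumina NovaSeq with the TruSeq Small RNA kit. The authors merged read pairs and removed adapters in BBMerge, counted miRBase miRNAs on GRCm38 with mirDeep2 and summed identical sequences. The deposited values are a signal, reads divided by the DESeq2 size factor of each library within a table of 6 libraries. Deposited tables of the authors' own comparisons, with shrunken fold changes and s-values, and lists of names were not used. Columns name no group. A library's group rests on the names of the tables, with mutant read as A537T, and columns without a group numbered 0.

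Whole reads were recovered for 100% of values in these libraries (tolerance 0.01) and divided by the library total to give RPM, which removes the size factors of separately normalised tables. limma 3.58.1 with a variance trend (R 4.3.3) was fitted to log2(RPM + 1) for miRNAs with a mean of at least 1 RPM, over 6 libraries, or 12 for a difference between lines, two-sided, with Benjamini-Hochberg adjustment. The scale understates changes of low miRNAs. Scripts were checked on simulated reads. The alternatives were pseudocounts of 0.25 and 5, no filter, a mean of at least 10 RPM, TMM and DESeq2 scaling, no variance trend, edgeR 4.0.16 and DESeq2 1.42.0 on the reads, all 36 libraries in 1 fit, thinning to the shallowest library and leaving out each library. Named were, per direction, the miRNAs of at least 10 RPM without overlap past the threshold, filled to 8 by the smallest p, then the 5 most abundant, up to 4 members of each of 36 lists, other arms, the smallest p of each difference between lines and 6 named by the study. Members and lists were chosen with earlier results of these data known. Host genes are from GENCODE M21. Depth was 8248079 to 17558076 reads per library, and PCR reads are not independent molecules.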

Additional observations from a re-analysis of the deposited data

Results flagged for a closer look

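The 3 miRNAs below were singled out because their age effect differed between lines in a test of the difference itself, all against A537T without TRAMP. miR-206-3p, a skeletal muscle miRNA, had a difference of 6.08 ± 1.04 (SE) in log2 units, at an adjusted p of 0.0158 in limma. It measured 776 to 1766 RPM at 10 weeks and 2.67 to 6.58 RPM at 30 weeks in A537T, and 16.7 to 163 RPM and 5.74 to 32.8 RPM in A537T-TRAMP. miR-1a-3p, also of muscle, had a difference of 3.69 ± 0.70 (SE, limma adjusted p 0.0158), from 30691 to 111756 RPM and 2682 to 4558 RPM in A537T and 1965 to 7788 RPM and 2108 to 4119 RPM in A537T-TRAMP. miR-378a-5p had a difference of 1.95 ± 0.35 (SE, limma adjusted p 0.0158), from 104 to 132 RPM and 28.4 to 40.8 RPM in A537T and 17.7 to 26.9 RPM and 20.1 to 31.4 RPM in A537T-TRAMP. For all 3 the A537T libraries of 10 weeks lay above the other 9 libraries of the comparison. Muscle content and age cannot be told apart in these libraries. The differences passed in 19, 18 and 20 of 23 alternatives.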

How the results depend on the processing

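The count of 5 miRNAs past the threshold became 2 with a pseudocount of 0.25, 0 with DESeq2 size factors, 2 without a variance trend, 3 in edgeR, 25 in DESeq2's Wald test (16 higher, 9 lower), 29 with all 36 libraries in 1 fit (27 higher, 2 lower) and 0 to 2 when leaving out 1 library. It was 7 with a pseudocount of 5 or no filter and 6 at 10 RPM, with TMM scaling or after thinning. Against WT-TRAMP the count of 0 became 1 with a pseudocount of 0.25, at 10 RPM, with TMM scaling, with DESeq2 size factors, without a variance trend, in edgeR and with all 36 libraries, 7 in DESeq2's Wald test and 0 to 21 when leaving out 1 library. Against KO-TRAMP it became 19 in DESeq2's Wald test and 0 to 60 when leaving out 1 library. Against A537T without TRAMP the 36 became 0 without a filter and in edgeR, 8 with TMM scaling, 10 with DESeq2 size factors, 13 with all 36 libraries, 11 after thinning and 0 to 54 when leaving out 1 library.

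Named miRNAs gave 587 alternative values with the same call, 55 that lost it, 36 that gained it and 9 of the opposite sign. Of the last, in DESeq2's Wald test miR-532-5p was -0.036 and miR-409-5p -0.0089, and over the fits that left out 1 library the log2 fold change ran over -0.62 to 0.16 for miR-143-3p, -0.18 to 0.00808 for miR-26a-5p, -0.17 to 0.025 for let-7f-5p, -0.30 to 0.14 for miR-676-5p, -0.15 to 0.52 for miR-409-5p. Summed lists changed sign with TMM scaling at log2 ratios of -0.029 for miR-200 family, -0.013 for the miR-183 cluster, -0.048 for red cell miRNAs, -0.071 for miR-99, miR-100 and miR-125, -0.047 for miR-135 family, and leaving out 1 library gave log2 ratios of -0.19 to 0.056 for basal miR-205 and miR-203, -0.030 to 0.27 for the miR-183 cluster, -0.15 to 0.051 for miR-26 and miR-101, -0.56 to 0.10 for smooth muscle miRNAs, -0.93 to 0.17 for skeletal muscle, -0.37 to 0.49 for red cell miRNAs, -0.048 to 0.38 for miR-126, -0.23 to 8.43e-05 for neural and neuroendocrine, -0.025 to 0.54 for miR-10 and miR-196, -0.13 to 0.17 for miR-99, miR-100 and miR-125, -0.41 to 0.79 for miR-135 family, -0.082 to 0.39 for Sfmbt2 cluster, -0.30 to 0.00369 for the list of miR-338, miR-383 and miR-676. The cause of these changes was not tested. No paired analysis was possible because the columns carry none of the replicate numbers of the labels. With 3 libraries a group the spread between libraries limits small changes, and thinning to the shallowest library kept all 5 calls. In that library 1 read stands for 0.121 RPM, so miRNAs near 1 RPM rest on few reads. The limit is coarser against A537T without TRAMP, where 1 read of library 35 stands for 1.53 RPM, above the filter of 1 RPM. Thinning that comparison to the depth of library 35 kept 10 of its 36 calls.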
